A study of Homo sapiens and Mus musculus with 57 samples.

Results

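The mitochondrially encoded genes of human cells were described in 33 RNA-seq libraries of tumour cell lines treated with inhibitors of the SUMO-activating enzyme. The members were the 37 rows of the human expression tables whose identifier begins with ENSG, out of 30373 rows in all. They were 13 protein genes, 2 ribosomal RNA (rRNA) genes and 22 transfer RNA (tRNA) genes, which together make up the gene set of the mitochondrial genome. The series held 57 libraries, of which 24 were from mouse lines and were not used here. The human libraries fell into 11 groups of 3. THP-1, a line from an acute monocytic leukaemia, received DMSO, the solvent control, or TAK-981. HCT116 and Colo205, both from colorectal carcinomas, and MDA-MB-231, from a breast carcinoma, received DMSO, ML-792 or TAK-981. The inhibitor dose was 1 uM throughout, and every treatment lasted 16 h. Each line was 1 established line grown in culture dishes, THP-1 in 12-well plates and the others in 24-well plates, so the line and the plate format cannot be told apart. Wells were seeded in sets of 3 and were not said to be separate cultures, so the p-values rest on a spread between samples that may be only technical. TAK-981 and ML-792 both block the enzyme that activates SUMO, a small protein that cells attach to other proteins, many of them in the nucleus.

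The mitochondrial genome is a small circle of DNA that is copied into long transcripts from both of its strands. The heavy strand gives most of the messenger RNAs and both rRNAs, and the light strand gives MT-ND6 and some of the tRNAs. The long transcripts are cut mostly at the tRNAs, which lie between the other genes, and all of the encoded proteins are core parts of the respiratory chain or of ATP synthase. The remaining subunits of those complexes, the mitochondrial ribosomal proteins and the RNA polymerase POLRMT are encoded in the nucleus. Most mitochondrial messenger RNAs carry a poly(A) tail, MT-ND6 is known to lack one in human cells, and the rRNAs carry only short tails. These libraries were made from poly(A)-selected RNA.

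The ends of 6 protein genes are shown because poly(A) tails, on which these libraries were selected, also complete the stop codons of many of these messenger RNAs. Of the 13 protein genes, 6 end in an incomplete stop codon, 5 of them with 1 base and 1 with 2 bases, and the A residues of the tail supply the rest. The ends are given 5′ to 3′ on the coding strand with the last codon, or what the gene holds of it, in capitals, and were read from the GENCODE release 29 annotation of GRCh38.
MT-CO1 (chrM:7422-7445, plus strand): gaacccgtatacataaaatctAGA
MT-CO3 (chrM:9967-9990, plus strand): tctccatctattgatgagggtctT
MT-ND1 (chrM:4239-4262, plus strand): ctccagcattccccctcaaaccTA
MT-ND4 (chrM:12114-12137, plus strand): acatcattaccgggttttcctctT
MT-CYB (chrM:15864-15887, plus strand): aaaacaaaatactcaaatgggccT
MT-ND6 (chrM:14149-14172, minus strand): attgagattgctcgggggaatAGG
MT-CO1 and MT-ND6 ended in AGA and AGG, while MT-CO3, MT-ND4 and MT-CYB ended in a single T and MT-ND1 in TA. MT-ATP8 and MT-ATP6, on 1 shared messenger RNA, overlap by 46 bases at chrM:8527-8572 on the plus strand, so a read in that stretch belongs to both rows and how it was divided is not given in the sources used here.
MT-ATP8 and MT-ATP6, shared bases: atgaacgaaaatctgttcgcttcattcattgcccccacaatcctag
MT-ND4L and MT-ND4 also share 7 bases, and MT-ATP6 and MT-CO3 share 1 base, the last of the annotated MT-ATP6 stop codon.

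Each library held between 17336368 and 25807864 counts in all, and no replicate pair held identical counts. The defining markers followed the labels in most cases under DMSO: in THP-1 the myeloid factor SPI1 stood at a mean of 201 CPM (counts scaled to a common library total) and the leukocyte phosphatase PTPRC at 162 CPM, and the epithelial adhesion gene EPCAM stood at 280 CPM in HCT116 and 878 CPM in Colo205. The intestinal factor CDX1 had 0 counts in HCT116 under DMSO, and in MDA-MB-231 the filament gene VIM stood at 2624 CPM beside 9.11 CPM of EPCAM. Of the other listed epithelial markers in MDA-MB-231, KRT8, KRT18 and KRT19 stood at 690, 448 and 342 CPM. CDH1 stood at 0.305 CPM there, and CDX1, CDX2 and VIL1 at 0 CPM. In HCT116, CD44 and CAV1, listed as mesenchymal-like, stood at 760 and 512 CPM, and the epithelial marker VIL1 at 0.049 CPM. The lysozyme gene LYZ, listed as a monocytic marker, was at 1115 CPM in THP-1 and also at 1706 CPM in Colo205.

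The 15 protein and rRNA rows had counts in all 33 libraries, from 10419 counts upward for the least covered rRNA row, MT-RNR1. All 22 tRNA rows, 59 to 75 bases long, had 0 counts in every library, which allows at most 0.173 CPM per row in the shallowest library by counting error alone. The shortest row of any kind with a count was SNORA62 at 154 bases, and only 11 rows under 200 bases had any count, so no row of tRNA length held one. The nuclear copies of mitochondrial sequence known as MTRNR2L held a count in 4 of 9 rows and at most 10 counts in a library. How reads shared with MT-RNR2 were assigned is not given in the sources used here.

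Under DMSO, the 3 rows of complex IV, the terminal oxidase, had the highest levels per length in every line. On the scale of fragments divided by gene length and library total (FPKM), MT-CO2 stood at 11463 ± 482 in THP-1 and 12546 ± 983 in HCT116 (SD, n = 3), and MT-CO1 led in Colo205 at 11166 ± 244. In MDA-MB-231 MT-CO2, MT-CO1 and MT-CO3 stood at 6021 ± 149, 5851 ± 319 and 5586 ± 280 FPKM, and the ranges of neighbours in this order overlapped down to MT-ATP6 at 5326 ± 131 FPKM. MT-RNR1, the small-subunit rRNA, was the lowest of the 15 rows in every line, at 671 ± 4.07 FPKM in THP-1, 780.1 ± 22.8 in HCT116, 1143 ± 18.3 in Colo205 and 599 ± 50.5 in MDA-MB-231. MT-RNR2, the large-subunit rRNA, stood at 3925 ± 53.8 FPKM in THP-1 and 4095 ± 97.5 in Colo205, above its small-subunit partner in each of the lines.

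**Figure D1:**
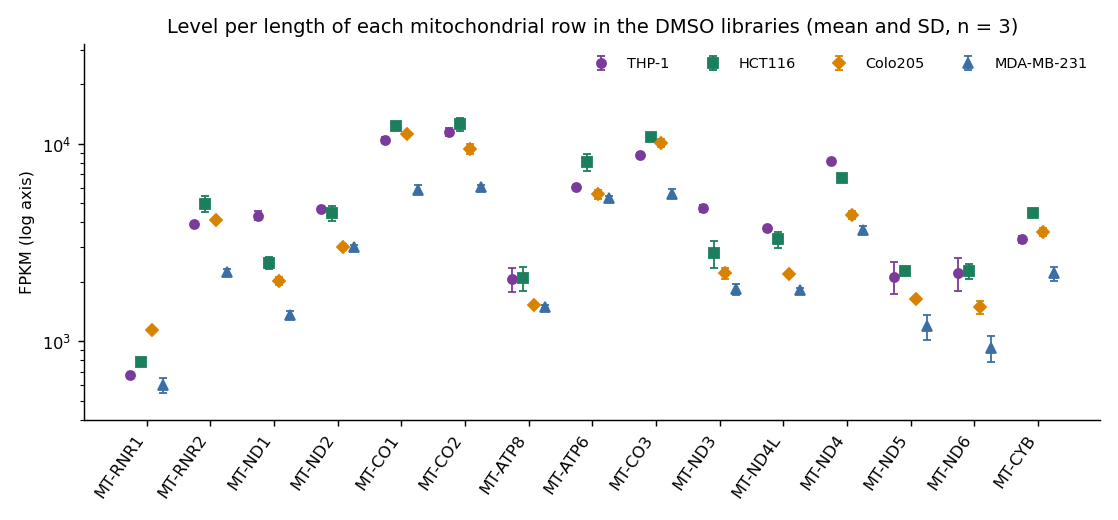
Level of the 15 mitochondrial rows with counts under DMSO, as FPKM on a log axis, with a symbol at the mean of the 3 libraries of each line and bars of 1 SD. The complex IV rows lie at the top in every line, and MT-RNR1 at the bottom, from 599 FPKM in MDA-MB-231 to 1143 FPKM in Colo205.

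The lines differed in how much of these RNAs they held before any inhibitor was added. In a joint edgeR quasi-likelihood fit of the DMSO libraries, all 15 rows differed between lines, as did 99.1% of the 16782 genes tested, so this count does not set these rows apart. All 15 rows were higher in THP-1 than in MDA-MB-231, beside 43.1% of all genes, and all 15 were higher in HCT116 than in MDA-MB-231, beside 39.8% of all genes. Between THP-1 and HCT116, 6 rows were higher in THP-1 and 2 lower, beside 41.8% and 42.8% of all genes. Against Colo205, 10 rows were higher and 1 lower in THP-1 and 12 higher and 1 lower in HCT116, and 12 rows were higher in Colo205 than in MDA-MB-231, in comparisons that called 86.0%, 79.9% and 81.5% of all genes. MT-ND1, a membrane subunit of complex I, had the largest of these differences: it stood at 4320.4 ± 219.7 FPKM in THP-1, 2497.5 ± 179.95 in HCT116, 2019 ± 88.8 in Colo205 and 1357 ± 60.7 in MDA-MB-231. Its ranges did not overlap between any of the lines, and the log2 difference of THP-1 from HCT116 was 1.01 ± 0.06 (SE). MT-RNR1 followed another order, with log2 levels 0.66 ± 0.05 below Colo205 in both THP-1 and HCT116. After scaling by library composition, THP-1 and HCT116 did not differ detectably from each other in MT-RNR1 (0.00 ± 0.05, edgeR adjusted p = 0.993). That result depended on the scaling: in FPKM its ranges were 667 to 675 in THP-1 and 758 to 803 in HCT116, without overlap.

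The share of all counts taken by mitochondrial rows rose about 2.09-fold in THP-1 with TAK-981 and stayed near the DMSO level in the carcinoma lines. In THP-1 the share was 7.41%, 7.15% and 7.58% in the DMSO libraries and 13.58%, 17.02% and 15.87% with TAK-981. The groups did not overlap, the log2 ratio was 1.06, and the exact permutation p was 0.1, the smallest that 3 against 3 libraries allow. In HCT116 the share was 8.09%, 8.19% and 7.45% with DMSO, 9.24%, 7.79% and 7.42% with TAK-981 and 7.79%, 7.95% and 7.54% with ML-792. These 3 groups overlapped. In Colo205 it was 6.56%, 6.30% and 6.16% with DMSO, 6.96%, 6.96% and 6.89% with TAK-981 and 7.66%, 6.36% and 6.65% with ML-792. The TAK-981 libraries of Colo205 lay above its DMSO libraries, with a log2 ratio of 0.13 and an exact p of 0.1, and its ML-792 libraries overlapped with them. The replicate numbers were taken to pair the samples of Colo205, on the basis of shared deviations in these same data. Within these pairs the share was higher in 3 of 3 with TAK-981 and in 3 of 3 with ML-792 (exact paired p = 0.25 each, the smallest that 3 pairs allow). MDA-MB-231 had the lowest shares, at 4.28%, 3.96% and 4.14% with DMSO, 4.24%, 3.82% and 4.13% with TAK-981 and 3.86%, 3.70% and 4.11% with ML-792, and its groups overlapped. Its DMSO and TAK-981 libraries were taken as paired by number on the same basis, and the share was lower with TAK-981 in 3 of 3 pairs (exact paired p = 0.25). A share is relative: more mitochondrial RNA and less nuclear RNA cannot be told apart in it, nor can fewer cells of a kind and less RNA per cell.

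Over all 4 lines, with labels permuted within lines, the share with TAK-981 was higher by a mean log2 ratio of 0.30 (95% interval 0.05 to 0.525, exact p = 0.0136, 0.0407 after Benjamini-Hochberg adjustment over 3 comparisons). That interval assumes an equal shift in every line. By line the log2 ratios were 1.06 in THP-1, 0.04 in HCT116, 0.13 in Colo205 and −0.02 in MDA-MB-231. The shifts were thus unequal, and the 95% level of the interval is not assured for the mean. Without THP-1 the mean of the other 3 lines was 0.05 (interval −0.035 to 0.135, exact p = 0.272), so the mean over all lines rested on THP-1. For ML-792, which was not given to THP-1, the mean log2 ratio was 0.00 (interval −0.08 to 0.09, exact p = 0.984). Between the inhibitors at the same dose and time, the mean log2 ratio of TAK-981 to ML-792 was 0.05 (interval −0.045 to 0.14, exact p = 0.318). This interval bounds the mean ratio of their shares over these lines between 0.969 and 1.10 only if the shift was equal in every line. It does not bound the ratio in any single line without that assumption.

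**Figure D2:**
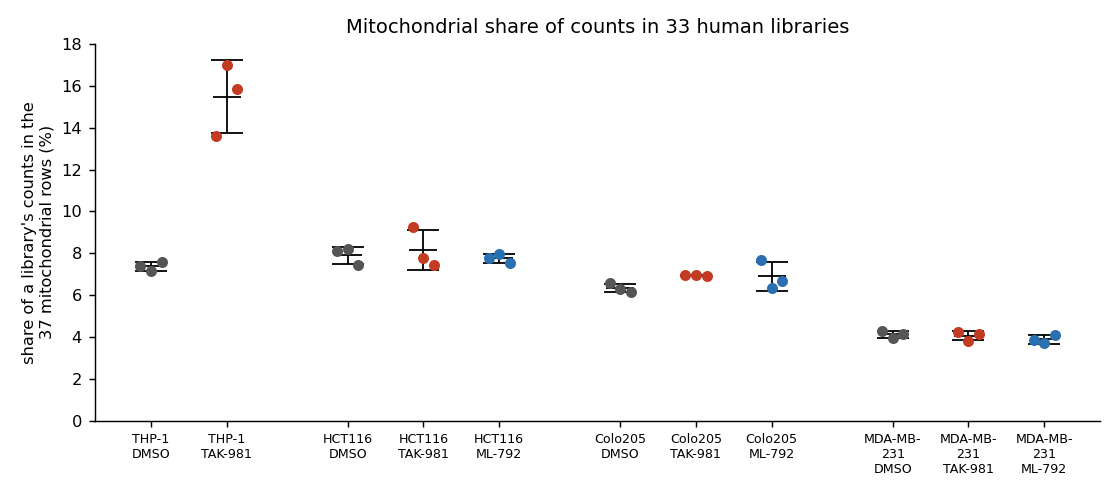
Mitochondrial rows as a percent of all counts in each of the 33 libraries, by line and treatment, with a point per library and black marks at the group mean and 1 SD. The TAK-981 libraries of THP-1 lie between 13.58% and 17.02%, above all other libraries, and the carcinoma groups stay between 3.70% and 9.24%.

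In THP-1 every mitochondrial row with counts was higher with TAK-981, whether an rRNA or a protein gene. Against DMSO, 15 of 15 rows passed an adjusted p of 0.05 upward in edgeR's quasi-likelihood test and none passed downward, in a comparison that called 35.5% of the 14526 genes tested higher and 33.9% lower. The log2 fold changes ran from 0.60 to 1.35 with a median of 0.74, beside a median of 0.03 over all genes tested. The library size factors differed between these groups: with scaling by library size alone the median over all genes moved to 0.26 and that of the mitochondrial rows to 0.98, and all 15 stayed called.

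The rRNAs lay near the ends of this range, with MT-RNR2 the highest row and MT-RNR1 just above MT-ND3, the lowest. MT-RNR2 was at 6739, 6767 and 6442 CPM in the DMSO libraries and 15958, 18009.6 and 16886 CPM with TAK-981, after scaling by library composition. The groups lay far apart, with a log2 fold change of 1.35 ± 0.08 (SE, edgeR adjusted p = 2.91e-09). MT-RNR1 was at 694, 709 and 683 CPM with DMSO and 1015, 1090.4 and 1056 CPM with TAK-981, a log2 fold change of 0.60 ± 0.06 (edgeR adjusted p = 1.48e-06). Both rRNA rows were higher in each TAK-981 library, by 2.55-fold and 1.52-fold.

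Among the complex IV rows, MT-CO1, the catalytic subunit, was at 17461, 17137 and 17916 CPM with DMSO and 28704, 35745 and 32516 CPM with TAK-981 (log2 fold change 0.88 ± 0.09). MT-CO3 rose by 0.86 ± 0.09 and MT-CO2, which takes the electrons from cytochrome c, by 0.74 ± 0.09 on the log2 scale. MT-CYB, the only mitochondrially encoded subunit of complex III, was at 4261, 3931 and 3988 CPM with DMSO and 6444, 8004 and 7219.5 CPM with TAK-981 (0.83 ± 0.09). The ATP synthase rows MT-ATP6 and MT-ATP8, which share bases, rose by 0.74 ± 0.09 and 0.70 ± 0.10. In each of these rows the lowest TAK-981 library was replicate 1, which still lay above every DMSO library.

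The complex I rows rose by 0.60 to 0.80. MT-ND4, a proton-pumping subunit, was at 12344, 12104 and 12118 CPM with DMSO and 16129, 20689 and 19469 CPM with TAK-981 (0.62 ± 0.09). MT-ND5, its neighbour in the membrane arm, was at 4367, 3359.9 and 4757 CPM with DMSO and 5443, 7489 and 8843 CPM with TAK-981 (0.80 ± 0.15). MT-ND6, the light-strand subunit, was at 1458, 1002 and 1327 CPM with DMSO and 1487, 1963 and 2442 CPM with TAK-981 (0.64 ± 0.15, edgeR adjusted p = 0.00214). Its groups were the closest of these rows, since the lowest TAK-981 library lay just above the highest DMSO library. MT-ND1, MT-ND2, MT-ND3 and MT-ND4L rose by 0.76, 0.78, 0.60 and 0.64.

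**Figure D3:**
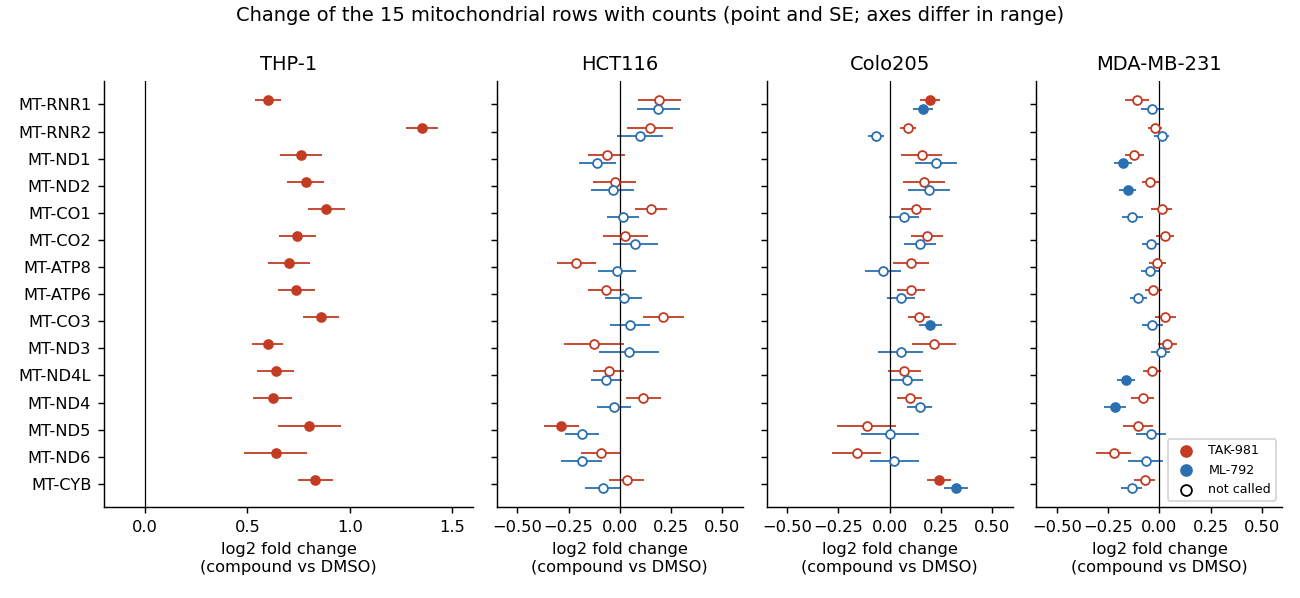
Log2 fold change of each of the 15 mitochondrial rows against DMSO in each line, with bars of 1 SE, red for TAK-981, blue for ML-792 and open circles for rows that did not pass the test (the x axis of THP-1 has a wider range). The THP-1 values lie between 0.60 and 1.35, with MT-RNR2 the highest, and the carcinoma values stay between −0.29 and 0.32.

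Within the mitochondrial RNAs of THP-1, MT-RNR2 took a larger part with TAK-981. It held 8.30 ± 0.33% of the mitochondrial counts with DMSO and 11.9 ± 0.72% with TAK-981 (SD, n = 3). Scaled to the mitochondrial total, MT-RNR2 was the only row that passed the test in THP-1, with a log2 fold change of 0.52 ± 0.12 (edgeR adjusted p = 0.00125), in a fit on that scale that called 77.9% of all genes. Without TAK-981 replicate 1, 3 rows passed.

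Lineage markers moved with these changes in THP-1, in more than 1 direction. Of the 6 monocytic markers, LYZ, MPO and CSF1R were called lower (log2 fold changes −1.83, −1.84 and −0.29), PTPRC was called higher (0.73), and SPI1 and CD33 did not pass (−0.14 and 0.02, edgeR adjusted p = 0.126 and 0.816). Their sum by library total fell from between 1518 and 1612 CPM to between 943 and 1039.9 CPM, and most of it was LYZ, at a mean of 1115 CPM with DMSO and 369.8 CPM with TAK-981. None of the 6 was at 0 with DMSO. The 5 mesenchymal-like markers summed to 202 to 218 CPM with DMSO and 134 to 149 CPM with TAK-981, and the 8 epithelial markers to 1.24 to 1.87 CPM and 2.62 to 3.02 CPM. Marker sums also shifted without overlap in carcinoma lines: the mesenchymal-like sum with DMSO, TAK-981 and ML-792 was 238 to 242, 110.2 to 115 and 109 to 121 CPM in Colo205, 1361 to 1451, 1042 to 1108 and 1091 to 1119 CPM in HCT116, and 6082 to 6532, 5695 to 5994 and 5513 to 5672 CPM in MDA-MB-231. The epithelial sum was 7209 to 7720, 7899 to 8011 and 8077 to 8854 CPM in Colo205 and 1450.1 to 1546, 1182 to 1226 and 1159 to 1198 CPM in MDA-MB-231. The part of any of these shifts in the mitochondrial values was not tested.

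The nuclear genes for the same complexes mostly went the other way in THP-1. Of 76 nuclear respiratory chain and ATP synthase subunits tested, 7 rose and 62 fell with TAK-981, beside 35.5% of all genes higher and 33.9% lower, with a median log2 fold change of −0.65 beside 0.03 over all genes. By complex, 5 rose and 28 fell of 37 in complex I, 1 rose and 3 fell of 4 in complex II, 1 rose and 7 fell of 9 in complex III, 0 rose and 10 fell of 10 in complex IV, and 0 rose and 14 fell of 16 in ATP synthase. The lowest and highest member of each list, chosen after their values were seen, ran from −1.64 for NDUFB3 to 0.60 for NDUFS1 in complex I and from −1.10 for SDHD to 0.87 for SDHA in complex II. They ran from −1.28 for UQCR11 to 0.64 for UQCRFS1 in complex III and from −1.68 for COX8A to −0.31 for COX4I1 in complex IV. In ATP synthase ATP5G2 had −1.71, while ATP5A1, the gene of the alpha subunit, had −0.06 and did not pass the test (edgeR adjusted p = 0.480). Complex IV thus held 3 mitochondrial rows that rose and 10 nuclear rows that fell.

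Mitochondrial ribosomal protein genes, whose products assemble with the rRNAs, had 10 that rose and 51 that fell of 76, beside the same 35.5% and 33.9% of all genes, with a median of −0.35. High expression went with lower values in THP-1: of the 170 nuclear genes with a mean level of at least 609 CPM, that of the lowest mitochondrial row, 8.82% rose and 85.9% fell, with a median of −0.83. The mitochondrial rows thus had the opposite direction to most nuclear genes at or above the level of the lowest row. These genes were not matched in level to the higher rows.

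**Figure D4:**
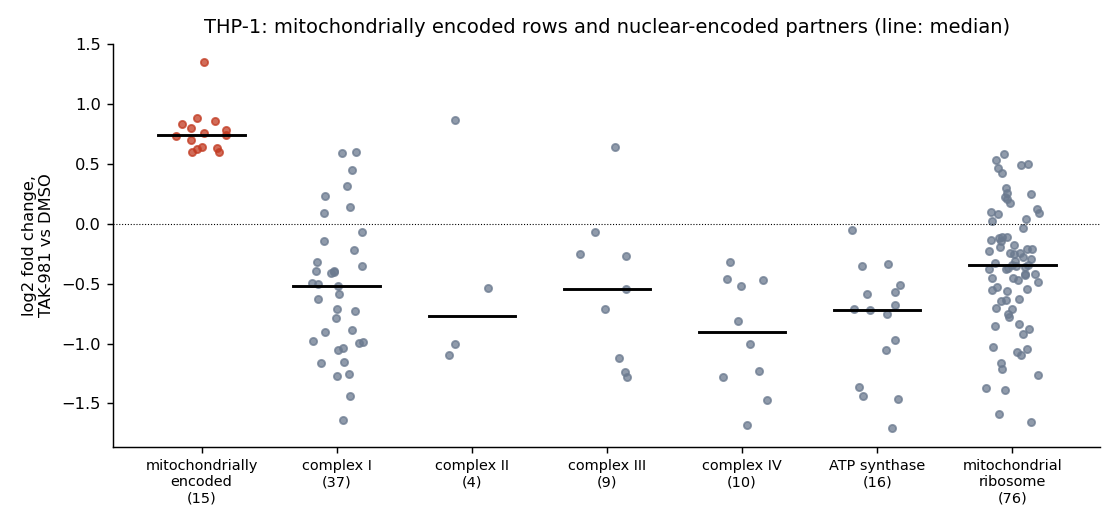
Log2 fold change with TAK-981 in THP-1 for the mitochondrial rows, the nuclear subunits of the respiratory chain and ATP synthase by complex, and the mitochondrial ribosomal proteins, with a point per gene, a line at the median and the number of genes in brackets. The mitochondrial rows lie between 0.60 and 1.35, while the nuclear subunits have a median of −0.65 and range from −1.71 to 0.87.

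Genes for mitochondrial transcription and RNA care moved in both directions in THP-1. Of 64 tested members, which covered mtDNA transcription and copying, RNA processing, RNA decay, regulators, and chaperones and proteases, 19 rose and 23 fell, with a median of −0.01, beside 35.5% of all genes higher and 33.9% lower, so these counts do not stand apart from the background. POLRMT, the mitochondrial RNA polymerase, rose by 0.35 ± 0.09 and the elongation factor TEFM by 0.26 (edgeR adjusted p = 0.027). TFAM, which packs mtDNA and starts its transcription, fell by 0.60 ± 0.10, and TFB2M, the other initiation factor, had 0.17 and did not pass the test (edgeR adjusted p = 0.157). LRPPRC and SLIRP, which bind and stabilise mitochondrial messenger RNAs, fell by 0.67 and 1.00. SSBP1, the mitochondrial single-strand binding protein, fell by 1.19 and the RNA-processing gene FASTKD5 rose by 1.15. MYC, a regulator of many growth genes, fell by 1.02 and the chaperonin gene HSPE1 fell by 2.14.

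In HCT116 only MT-ND5 passed the test with TAK-981, and no row passed with ML-792. MT-ND5 was at 3983, 4065 and 4157 CPM with DMSO, 3238, 3289 and 3485 CPM with TAK-981 and 3838, 3009 and 3889 CPM with ML-792. Its TAK-981 libraries lay below its DMSO libraries, by 0.29 ± 0.08 on the log2 scale (edgeR adjusted p = 0.0365), in a comparison that called 14.4% of all genes. This call was lost when DMSO replicate 1, 2 or 3 or TAK-981 replicate 1 or 2 was left out. With ML-792, 0 of 15 rows passed and 1 was under an unadjusted p of 0.05, beside 11.3% of all genes called. Of the 77 nuclear subunits 6 rose and 0 fell with TAK-981, and 1 rose and 0 fell with ML-792. Among all genes tested 7.66% rose and 6.73% fell with TAK-981, and 5.99% rose and 5.27% fell with ML-792. Of the 64 transcription and RNA care genes 4 rose and 7 fell with TAK-981 and 4 rose and 4 fell with ML-792. DDIT3, a stress-response factor, rose by 1.24 and 1.02, and MYC fell by 0.36 and 0.30. The ribosomal protein genes had 2 that rose and 3 that fell with TAK-981 and 1 of each with ML-792. These small counts moved with single libraries: with 1 library left out, the subunits called with TAK-981 ranged from 1 to 9 and the ribosomal protein genes from 0 to 5.

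In Colo205, MT-CYB and MT-RNR1 were called higher with both inhibitors and MT-CO3 with ML-792. In these fits, made without a replicate block, the counts were no larger than the background of all genes. The 2 comparisons share their DMSO libraries. MT-CYB was at 4297, 4033 and 3876 CPM with DMSO, 4748, 4688 and 4998 CPM with TAK-981 and 5446, 4617 and 5212 CPM with ML-792. Both inhibitor groups lay above DMSO, by 0.24 ± 0.06 (edgeR adjusted p = 0.00588) and 0.32 ± 0.06 (edgeR adjusted p = 0.000701). MT-RNR1 was at 1123, 1079 and 1078 CPM with DMSO, 1235, 1197 and 1329 CPM with TAK-981 and 1223, 1175 and 1278 CPM with ML-792. It was above DMSO in all inhibitor libraries, by 0.20 ± 0.05 and 0.16 ± 0.05. MT-CO3 rose by 0.20 ± 0.06 with ML-792 (edgeR adjusted p = 0.0105) and had 0.14 with TAK-981 (edgeR adjusted p = 0.0578).

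Without a replicate block, these came to 2 of 15 rows higher with TAK-981, beside 17.9% of all genes. With ML-792 they came to 3 of 15, beside 20.9%, so these counts do not set the rows apart. With TAK-981, 4 rows were called without DMSO replicate 1. With ML-792, 1 row was called without DMSO replicate 3 and 7 without ML-792 replicate 2. With the replicate number as a block, 6 rows were higher and 1, MT-ND6, lower with TAK-981, and 7 were higher with ML-792. These block fits called 6107 and 6891 of the 14152 genes tested in either direction. The share called higher was not counted for them, so whether the rows stand apart with the block was not tested. Scaled to the mitochondrial total, MT-CYB alone passed with ML-792 (0.21 ± 0.07, edgeR adjusted p = 0.0224, beside 31.8% of all genes called) and no row with TAK-981 (2 of 15 at an unadjusted p under 0.05, beside 29.9% of all genes called), where 2 passed with the block and 2 without TAK-981 replicate 2. The ML-792 call on this scale was lost without any 1 of the DMSO libraries or without ML-792 replicate 3. The nuclear subunits had 1 that rose and 3 that fell with TAK-981 (14 called with the block) and 13 that rose and 3 that fell with ML-792, of 77 tested. With 1 library left out the subunits called ranged from 1 to 5 and from 4 to 17. Of 65 transcription and RNA care genes 7 rose and 23 fell with TAK-981 and 9 rose and 22 fell with ML-792: TFAM fell by 0.31 and 0.33, LRPPRC by 0.37 and 0.49, and DDIT3 rose by 1.15 and 1.31. Of the ribosomal protein genes 3 rose and 31 fell with TAK-981 and 5 rose and 30 fell with ML-792, in comparisons that called 35.9% and 41.8% of all genes in either direction. Split by direction, 17.9% and 20.9% of all genes rose, and 2552 and 2946 of the 14152 tested fell. Falls thus took a larger share of the ribosomal protein and the transcription and RNA care genes than of all genes, and rises a smaller share. These differences were not tested.

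In MDA-MB-231, 4 of the 7 complex I rows, MT-ND1, MT-ND2, MT-ND4 and MT-ND4L, were called lower with ML-792, while MT-ND3, MT-ND5 and MT-ND6 were not called. MT-ND4 was at 5301, 4929.6 and 5017 CPM with DMSO, 5092, 4419 and 4898 CPM with TAK-981 and 4092, 4234 and 4800.3 CPM with ML-792. The ML-792 libraries lay below the DMSO libraries, by 0.22 ± 0.06 on the log2 scale (edgeR adjusted p = 0.00946). MT-ND1 was at 1328, 1247.5 and 1336 CPM with DMSO, 1288, 1136 and 1170.2 CPM with TAK-981 and 1152, 1112 and 1193 CPM with ML-792, and was lower with ML-792 by 0.18 ± 0.04. MT-ND2 and MT-ND4L were lower by 0.16 each. Scaled to the mitochondrial total, no row passed with ML-792. On that scale MT-ND1, MT-ND2, MT-ND4 and MT-ND4L had −0.08, −0.06, −0.12 and −0.06.

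These 4 of 15 rows, all lower, stood beside 22.6% of all genes called in either direction with ML-792. Called lower were 1540 of the 13976 genes tested, a smaller share than 4 of 15 rows. Whether the rows stand apart from that background was not tested. The count of rows called was 1 without ML-792 replicate 1, 2 without DMSO replicate 3 or ML-792 replicate 2, and 7 without ML-792 replicate 3. With TAK-981 none of the 15 rows passed and 2 were under an unadjusted p of 0.05, beside 20.2% of all genes called. The replicate block called MT-ND1, MT-ND6 and MT-RNR1 lower with TAK-981, in a fit that called 3505 of 13976 genes in either direction. With ML-792 the block called MT-ATP6, MT-CO1 and MT-CYB lower besides the 4 complex I rows. That fit called 3865 of 13976 genes, and the replicate numbers were not taken to pair those samples. Without DMSO replicate 2, 3 rows were called with TAK-981. The nuclear subunits had 1 that rose and 2 that fell with TAK-981 and 1 that rose and 4 that fell with ML-792, of 76 tested. The transcription and RNA care genes had 9 that rose and 1 that fell with TAK-981 and 6 that rose and 2 that fell with ML-792. DDIT3 rose by 0.46 and 0.34, and the nuclear respiratory factor GABPA by 0.20 and 0.23. Of the ribosomal protein genes 1 rose and 8 fell with TAK-981, and 1 rose and 9 fell with ML-792. With 1 library left out, the transcription and RNA care genes called with TAK-981 ranged from 1 to 7, so that count depended on every library.

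TAK-981 and ML-792 were compared directly in the 3 carcinoma lines, at the same dose and time, which made 45 tests on mitochondrial rows. No row passed in any line, and 0, 1 and 4 rows in HCT116, Colo205 and MDA-MB-231 were under an unadjusted p of 0.05, beside 0.0481%, 0.00707% and 0.0215% of all genes called. The 95% intervals of the log2 difference reached from −0.48 to 0.38 in HCT116, −0.44 to 0.40 in Colo205 and −0.34 to 0.25 in MDA-MB-231 over the 15 rows. A difference of that size between the compounds is therefore not excluded for single rows. With the replicate block MT-RNR2 was higher with TAK-981 than with ML-792 in Colo205, by 0.16 ± 0.03 (edgeR adjusted p = 0.011). That block fit called 624 of 14152 genes. In Colo205, 1 row was also called between the compounds without ML-792 replicate 2. No nuclear subunit or transcription and RNA care gene passed between the compounds in any of the lines.

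The TAK-981 effect in THP-1 differed from that in each carcinoma line when the difference itself was tested. As interaction terms of a joint edgeR fit, 15 of 15 rows were higher in THP-1 than in HCT116, 14 of 15 than in Colo205 and 15 of 15 than in MDA-MB-231, beside 22.8%, 19.7% and 22.4% of all genes higher. MT-ND3, a small complex I subunit, missed the threshold against Colo205 (0.35 ± 0.16, edgeR adjusted p = 0.082). MT-RNR2 had the largest differences, at 1.19 ± 0.12, 1.23 ± 0.12 and 1.37 ± 0.12 on the log2 scale. No row passed between HCT116 and Colo205, HCT116 and MDA-MB-231, or Colo205 and MDA-MB-231, where 2, 1 and 3 rows were under an unadjusted p of 0.05 and 13.3%, 6.85% and 11.2% of all genes were called. Between HCT116 and Colo205, 2 rows were called without HCT116 DMSO replicate 3 and 3 without HCT116 TAK-981 replicate 1. THP-1 also differed from them in plate format, which cannot be told apart from the line.

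The ratio of summed complex I to summed complex IV counts fell with TAK-981 in every line, by small amounts. The log2 ratio of the summed counts of the complex I rows to those of the complex IV rows was −0.08, −0.21 and −0.14 in the DMSO libraries of THP-1 and −0.36, −0.30 and −0.21 with TAK-981. In HCT116 it was −0.61, −0.65 and −0.60 with DMSO, −0.81, −0.78 and −0.73 with TAK-981 and −0.67, −0.85 and −0.66 with ML-792. TAK-981 libraries were below DMSO libraries in both lines, narrowly in THP-1.

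In Colo205 the ratio was −0.97, −0.94 and −0.97 with DMSO, −1.001, −0.97 and −1.11 with TAK-981 and −0.87, −0.96 and −1.04 with ML-792. In MDA-MB-231 it was −0.43, −0.43 and −0.34 with DMSO, −0.52, −0.47 and −0.50 with TAK-981 and −0.49, −0.38 and −0.51 with ML-792. The TAK-981 libraries of both lines again lay below their DMSO libraries, in Colo205 by less than the rounding shown, and their ML-792 libraries overlapped with DMSO, while those of HCT116 lay below. Over the 4 lines the mean change with TAK-981 was −0.12 (interval −0.16 to −0.075, exact permutation p = 1.25e-05, the smallest it can give, 0.00015 adjusted over 12 ratio tests). By line it was −0.15, −0.16, −0.07 and −0.10 in THP-1, HCT116, Colo205 and MDA-MB-231. The fall was not shared by all complex I rows in Colo205, HCT116 or MDA-MB-231. Scaled to the mitochondrial total in Colo205, MT-ND5 and MT-ND6 had −0.24 and −0.29, and MT-ND4 and MT-ND4L −0.03 and −0.06. MT-ND1, MT-ND2 and MT-ND3 had 0.03, 0.04 and 0.09 on that scale. MT-ND4 had 0.04 in HCT116 and MT-ND3 had 0.06 in MDA-MB-231, while the other complex I rows of those lines had negative values. With ML-792 the mean over 3 lines was −0.06 (exact p = 0.0908, adjusted 0.182), and TAK-981 and ML-792 differed by −0.05 (interval −0.115 to 0.015, exact p = 0.128), so a difference between the compounds was not shown. The ratio was chosen with earlier results of these data known.

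The ratio of MT-ATP8 and MT-ATP6 to MT-CO3, neighbours on the heavy strand, also fell with TAK-981, by a mean of 0.12 over the lines (interval −0.195 to −0.055, exact p = 0.00121, adjusted 0.00728). The change was −0.28 in HCT116 and −0.13 in THP-1, where groups did not overlap, and −0.04 and −0.06 in Colo205 and MDA-MB-231, where they did. With ML-792 it was −0.08 (exact p = 0.05, adjusted 0.12). MT-ND6 relative to the heavy-strand protein rows had a mean change of −0.20 with TAK-981 (exact p = 0.0215, adjusted 0.0858) and did not pass the adjustment. The rRNA rows relative to the heavy-strand protein rows had 0.14 over 4 lines (exact p = 0.0311, adjusted 0.0934), made of 0.52 in THP-1 and a mean of 0.02 in the carcinoma lines. For MT-RNR2 alone the change in THP-1 was 0.58, with groups that did not overlap, and for MT-RNR1 alone it was −0.17, with groups that did.

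**Figure D5:**
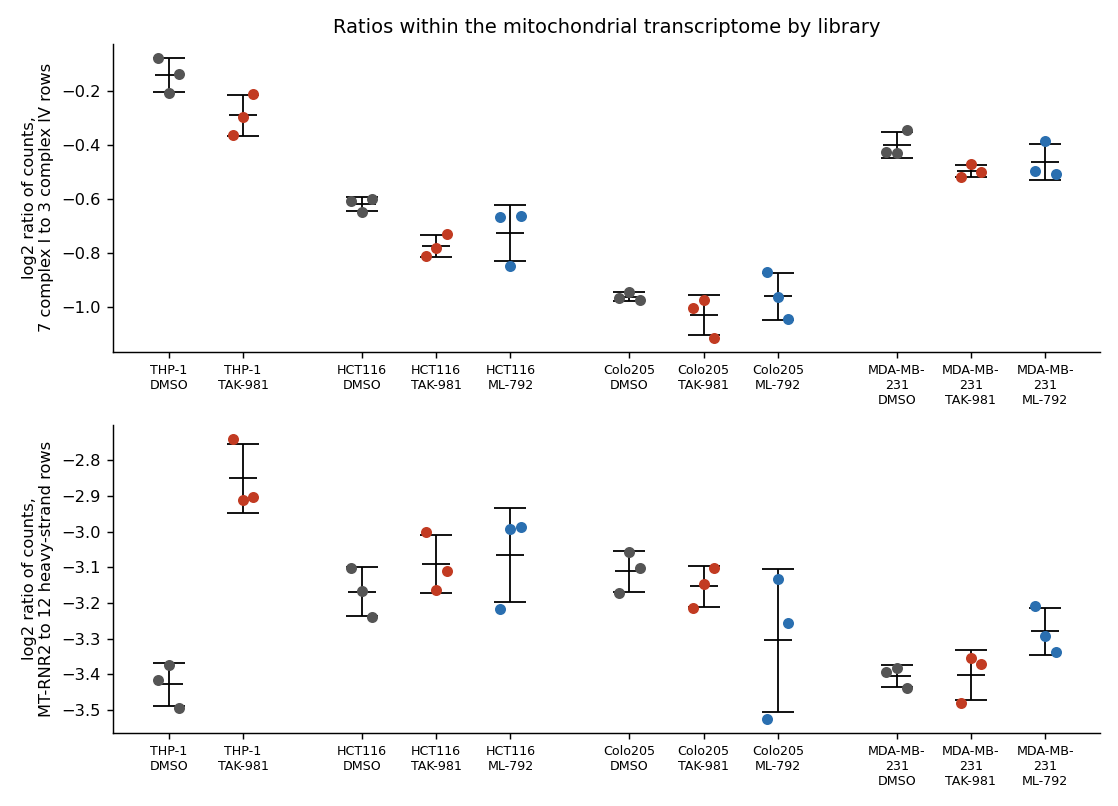
Log2 ratios of summed counts in each library, by line and treatment, for the complex I to the complex IV rows (top) and for MT-RNR2 to the heavy-strand protein rows (bottom), with a point per library and black marks at the group mean and 1 SD. The complex I to complex IV ratio is lower on average with TAK-981 than with DMSO in each line (changes of −0.07 to −0.16), and the MT-RNR2 ratio is higher with TAK-981 in THP-1 by 0.58.

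MT-ND5 and MT-ND6 varied most between replicates. The median within-group SD of log2 CPM over the 11 groups was 0.208 for MT-ND5 and 0.202 for MT-ND6, and the smallest, for MT-RNR2, was 0.046. The genes lie end to end on opposite strands, and the ratio of MT-ND6 to MT-ND5 counts stayed between 0.199 and 0.344, with a median within-group SD of the log2 ratio of 0.0846. It varied less than either row in 7 of the 11 groups. Whether counting used strand is not given in the sources used here, so reads of MT-ND6 and reads from the opposite strand at its position cannot be told apart.

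Over all 33 libraries, with each line centred on its own mean, the nuclear genes whose log2 levels followed the summed mitochondrial rows most closely were IER5, IRF7, IER5L, RHOC and EPSTI1, with Pearson's r of 0.916, 0.916, 0.912, 0.911 and 0.910 among the 10409 genes whose mean level reached 5 CPM. IRF7 and EPSTI1 are interferon-induced genes and IER5 is an immediate-early gene. Without THP-1, over 27 libraries, the values were 0.621, 0.460, 0.467, 0.568 and 0.594. The libraries share their line and treatment, so these values are a description.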

How the data were processed

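RNA of 33 human libraries was measured in 11 groups of 3, mapped to line and treatment by the labels. Per the labels' protocols, poly(A) RNA was selected with oligo-dT beads, primed with random primers in a TruSeq RNA kit, and sequenced as paired reads on a NovaSeq instrument. No source used here names an aligner, a build or an annotation, or says how reads were counted and whether strand was used. Per the file headers, the authors deposited, gene by gene, a count and an FPKM value. Their deposited expected counts carried no scaling and were rounded to whole numbers here, although the mitochondrial rows were whole already. The deposited FPKM values, which the authors had divided by gene length and by the library total, served for levels per length and for an alternative test.

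Counts were tested per line with edgeR 4.0.16 in R 4.3.3 (quasi-likelihood test, TMM scaling, filterByExpr with a minimum count of 10 and a total of 15, Benjamini-Hochberg adjustment over all genes tested, called at an adjusted p under 0.05). A standard error is the log2 fold change divided by the root of the F statistic. Joint fits over lines gave the interactions and the differences between lines under DMSO. For values relative to the mitochondrial total, that total was the library size. Shares and ratios were tested two-sided by exact permutation of labels within lines, with 95% intervals from inverting that test. These intervals assume an equal shift in every line. All members were reported, with full values for those with a call or at either end of a range. The limit behind 0 counts was 3 counts. It covers counting error only, as reads without molecular identifiers are not independent molecules.

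The fits were tested on simulated data with few changed genes, as many raised as lowered. That setting does not cover TAK-981 in THP-1, where most genes were called. The members, gene lists and ratios were chosen with earlier results of these data known. Gene coordinates and sequences came from GENCODE release 29 on GRCh38, whose lengths equal those implied by the authors' counts and FPKM for the 15 rows with counts. Same-numbered libraries of different treatments were checked for shared deviations from their group means: all 3 pairs correlated above 0.1 in each comparison of Colo205 and between DMSO and TAK-981 in MDA-MB-231, so the numbers were taken to pair those samples from the data, and blocked values are given where they change a call. Alternatives were other scalings, no filter, DESeq2 1.42.0, limma 3.58.1 on log2(FPKM + 1), only the 2 groups compared, the replicate block (for shares and ratios, labels swapped within pairs) and leaving out each library.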

Additional observations from a re-analysis of the deposited data

Results flagged for a closer look

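The change of mitochondrial rows with TAK-981 differed between lines by a test of the difference itself. In a joint edgeR quasi-likelihood fit with an interaction of line and treatment, 15 rows had a higher TAK-981 effect in THP-1 than in HCT116, 14 rows than in Colo205 and 15 rows than in MDA-MB-231, at an adjusted p under 0.05 over 17363 genes. Of all these genes, 22.8%, 19.7% and 22.4% were called higher in THP-1 in the same comparisons. The log2 differences were largest for MT-RNR2, at 1.19, 1.23 and 1.37. The line and its plate format cannot be told apart in these comparisons.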

How the results depend on the processing

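The calls in THP-1 kept their direction and stayed at 15 of 15 rows under each scaling, filter, tool and left-out library tried. Among single-gene values 327 of 345 kept their call, 18 lost it and 0 reversed, and among the values of comparisons 1020 of 1168 kept theirs, 4 lost it, 10 gained it, 112 moved and 22 reversed. Depth did not limit the rows with counts, and the tRNA rows were limited by the 0 counts. The cause of the following changes was not tested, and the alternatives without THP-1, with a single rRNA row and with the total without MT-RNR2 were chosen after seeing the data.

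With upper quartile scaling 0 mitochondrial rows were called in HCT116 with TAK-981 (1 in the report), as with limma on FPKM, 5 in Colo205 with TAK-981, and 1 ribosomal protein gene in HCT116 with ML-792. With limma 6 ribosomal protein genes were called in HCT116 with ML-792 and 1 nuclear subunit in MDA-MB-231 with TAK-981. Without the filter 4 rows were called in Colo205 with TAK-981, 5 in Colo205 with ML-792, 2 in MDA-MB-231 with TAK-981 and 7 in MDA-MB-231 with ML-792. DESeq2 called 1 row in MDA-MB-231 with TAK-981 and 5 ribosomal protein genes there. DESeq2 and the fit without the filter each called 10 nuclear subunits in HCT116 with TAK-981, 2 with ML-792 and 6 transcription and RNA care genes in MDA-MB-231 with TAK-981. By library size alone 0 nuclear subunits were called in HCT116 with ML-792. With only the 2 groups compared, 8 rows and 8 nuclear subunits were called in Colo205 with TAK-981. In HCT116 that fit called 3 and 4 nuclear subunits with TAK-981 and ML-792 and 0 and 5 ribosomal protein genes.

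With the replicate block 7 rows were called in Colo205 with TAK-981, 7 with ML-792 and 1 between the compounds, and 3 in MDA-MB-231 with TAK-981. Relative to the mitochondrial total the block called 2 rows with each inhibitor in Colo205. It called 14 nuclear subunits in Colo205 with TAK-981. Where the replicate numbers did not pair the samples, the block called 7 rows, 2 rows relative to the total and 11 nuclear subunits in MDA-MB-231 with ML-792 and 1 ribosomal protein gene in HCT116 with ML-792. No other count moved by over 1.5 times with the block. For the shares and ratios over lines, swapping labels only within pairs where numbers were taken to pair the samples, chosen after seeing the data, left each mean difference as it was and changed no call: with TAK-981 the paired exact p was 0.0134 for the share, 7.81e-05 for complex I to complex IV and 0.000234 for the ATP synthase rows to MT-CO3. No paired analysis was possible in THP-1 because its groups share no replicate number. Relative to the heavy-strand protein rows, or to the total without MT-RNR2, 0 rows were called in Colo205 with ML-792.

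The log2 share ratio in THP-1 was 0.9323 without the 100 most abundant nuclear genes. Over lines it was 0.0476 with TAK-981 without THP-1, and with ML-792 −0.0016 without the rRNA rows, −0.0018 for protein rows and −0.0085 by FPKM. The change of rRNA against heavy-strand protein rows with TAK-981 was 0.0151 without THP-1 and −0.0183 for MT-RNR1 alone, that with ML-792 was 0.102 for MT-RNR1, and that between the compounds was 0.0009 for MT-RNR2. The change of complex I to complex IV with ML-792 was −0.0659 by FPKM.

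With each library left out in turn, the rows called ranged from 0 to 1 in HCT116 with TAK-981, from 2 to 4 and from 1 to 7 in Colo205 with TAK-981 and ML-792, from 0 to 1 there between the compounds, and from 0 to 3 and from 1 to 7 in MDA-MB-231. Relative to the mitochondrial total they ranged from 1 to 3 in THP-1, from 0 to 2 and from 0 to 3 in Colo205, and from 0 to 1 in MDA-MB-231 with TAK-981. The interaction counts ranged from 0 to 3 between HCT116 and Colo205 and from 0 to 1 between each of them and MDA-MB-231. The nuclear subunits ranged, with TAK-981 and ML-792, from 1 to 9 and 0 to 1 in HCT116, 1 to 5 and 4 to 17 in Colo205, and 1 to 3 and 3 to 7 in MDA-MB-231. The transcription and RNA care genes ranged from 7 to 12 and 3 to 7 in HCT116 and from 1 to 7 and 4 to 9 in MDA-MB-231. The ribosomal protein genes ranged from 0 to 5 and 0 to 1 in HCT116 and from 5 to 9 and 6 to 10 in MDA-MB-231. The share ratio with ML-792 over lines ranged from −0.0254 to 0.0195. The rRNA ratio ranged from 0.1274 to 0.1511 with TAK-981, from −0.0022 to 0.0601 with ML-792 and from −0.045 to 0.0173 between the compounds. The MT-ND6 ratio with TAK-981 ranged from −0.2347 to −0.1655, and the ratio of the ATP synthase rows to MT-CO3 with ML-792 from −0.0987 to −0.0659. The complex I to complex IV ratio ranged from −0.0706 to −0.0358 with ML-792 and from −0.0709 to −0.0361 between the compounds.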
